A study of Mus musculus with 12 samples.

Results

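A set of 10 MAP kinase feedback genes, of 22180 genes measured, was followed across the 4 combinations of genotype and temperature. They were Dusp1, Dusp2, Dusp4, Dusp5, Dusp6, Dusp8, Dusp10, Dusp16, Spry2 and Spry4. Each was taken by gene symbol, through the probe set that the platform annotation ties to that symbol alone. Dusp6 had a second such probe set, and the brighter over the 12 arrays was used, so that 10 of 23521 probe sets with a single symbol were read, and values are log2 expression throughout. Each array measured brown fat RNA of 1 mouse on the C57BL/6J background, with 3 mice in each group, after 5 h of fasting. The groups were adipocyte-specific Sel1L knockouts at 4 °C, their Sel1L f/f littermates at 4 °C, knockouts at room temperature and Sel1L f/f littermates at room temperature. The knockouts carried the floxed alleles with an Adiponectin-Cre transgene, and the littermates, called controls here, are labelled wildtype and Sel1L f/f. Sel1L is the partner of the Hrd1 ubiquitin ligase in degradation of misfolded proteins of the endoplasmic reticulum. The Cre acts in adipocytes, so other cells of the tissue keep the gene, and the age and sex of the mice are not given in the sources used here.

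MAP kinases are switched on by phosphate groups on a threonine and a tyrosine, and dual specificity phosphatases remove both. Dusp1, Dusp2, Dusp4 and Dusp5 encode nuclear enzymes that are themselves immediate early genes, Dusp6 encodes a cytoplasmic enzyme selective for ERK, and Dusp8, Dusp10 and Dusp16 encode enzymes that prefer the stress kinases JNK and p38. Spry2 and Spry4 encode Sprouty proteins, which restrain the path from growth factor receptors to ERK and are induced by that path. In brown fat, cold acts through noradrenaline and cAMP, and p38 is one of the kinases that pass this signal to thermogenic genes.

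Some readings of the whole series touch all results. The sample labels name brown fat tissue, while the series' design text speaks of isolated adipocytes, and markers of other cells were read. Brown adipocyte markers were bright in all groups (Ucp1 read 12.38 to 12.83 on the log2 scale over the 12 arrays), and markers of skeletal muscle varied most, with a mean over 15 genes of 2.64 to 6.77 in knockouts and 5.03 to 8.05 in controls at 4 °C, and of 3.01 to 6.54 in knockouts and 6.57 to 7.39 in controls at room temperature. Sel1l was lower in knockouts than in controls at room temperature (log2 difference -1.12 ± 0.14 SE, n = 3 per group, limma adjusted p = 0.00114) and not at 4 °C (-0.19 ± 0.14, adjusted p = 0.605), so it does not check the label of the 4 °C knockouts, and groups are named here by their labels. For control replicate 3 at room temperature, one label gives room temperature and another 4 °C. It was kept at room temperature, as its title and its temperature label have it. Its reading of Ppargc1a was 8.17, beside 10.94 to 11.49 in controls at 4 °C. Its reading of Fgf21 was 2.79, beside 6.35 to 6.67 in those mice. Its reading of Nr4a1 was 9.09, within the 8.81 to 9.90 of those mice.

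Cold raised Dusp1, Dusp6, Dusp8 and Dusp16 in both genotypes. In knockouts 6 of the 10 rose at 4 °C (Dusp1, Dusp5, Dusp6, Dusp8, Dusp16 and Spry2), and in controls 5 rose (Dusp1, Dusp6, Dusp8, Dusp16 and Spry4). Called means a limma adjusted p under 0.05 over all 23521 probe sets, of which 4.32% were called higher at 4 °C in knockouts and 4.85% in controls. None of the 10 fell in either genotype by this test, also at an unadjusted p under 0.05, where 4.70% of all probe sets fell in knockouts and 6.23% in controls by the adjusted p. In either direction 9.03% of all probe sets were called in knockouts and 11.1% in controls, and at an unadjusted p under 0.05 it was 8 of the 10 genes beside 20.7% in knockouts and 9 of the 10 beside 23.1% in controls. All 3 cold mice lay above all 3 room temperature mice for 7 of the 10 genes in knockouts (11.7% of all probe sets) and for 8 in controls (11.6%), and the reverse held for none (14.1% in knockouts and 14.3% in controls). The 4 genes that rose in both were Dusp1, Dusp6, Dusp8 and Dusp16, where 2.32% of all probe sets did so. The median log2 difference of the 10 genes was 1.15 in knockouts and 0.98 in controls, beside -0.01 over all probe sets in each genotype. In bulk tissue, a change in RNA per cell and a change in the share of a cell type cannot be told apart. Some markers of other cells also changed with cold. Of 8 endothelial markers, Tek and Emcn fell in knockouts (-0.62 and -0.73) and in controls (-0.91 and -1.05), while Pecam1 rose in controls (0.68), and 5 of the 8 had an unadjusted p under 0.05 in each genotype. The pericyte marker Cspg4 fell in knockouts (-1.52) and in controls (-1.18), S100b, a Schwann cell marker, fell in controls (-0.81), and among 8 macrophage markers Mrc1 rose in knockouts (0.59) and Itgam in controls (0.86). Of the 15 muscle markers, 0 were called by limma and 0 had an unadjusted p under 0.05 in either genotype, with medians of 0.68 in knockouts and -0.82 in controls. Of the 8 brown adipocyte markers, Ppargc1a rose in both genotypes and Elovl3 in controls (1.83). The part of these cells in the cold changes was not tested. With the conflictingly labelled array moved to the 4 °C controls, the count was 2 in knockouts (Dusp1 and Dusp5) and 0 in controls, where then 0 of 23521 probe sets passed. The knockout estimates stayed the same in that fit, as for Dusp16 (1.29), whose limma adjusted p became 0.125.

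**Figure D1:**
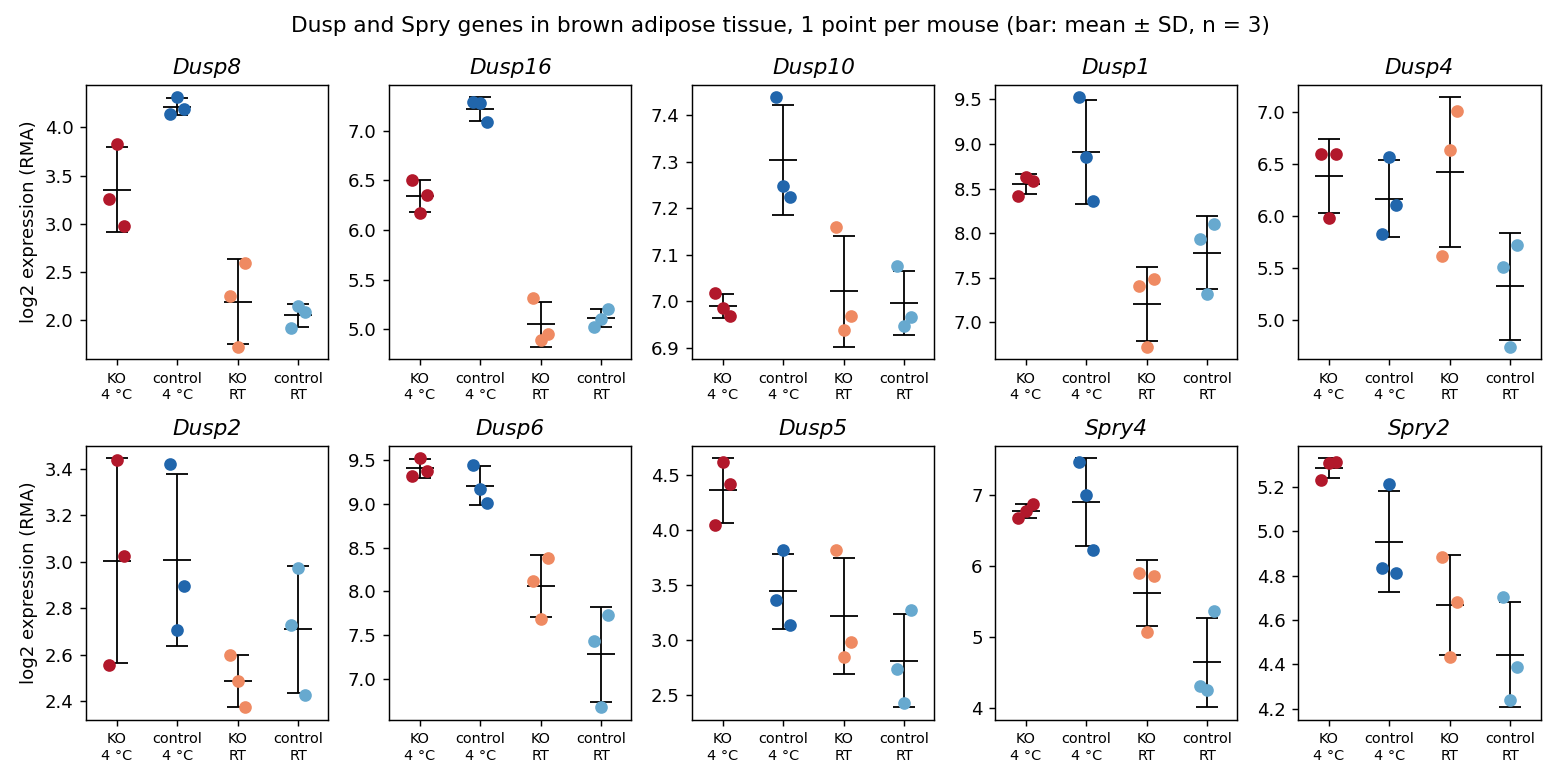
Log2 expression (RMA, y axis, own scale per gene) of the 10 genes in knockout (KO) and control mice at 4 °C and at room temperature (RT), 1 point per mouse, with mean ± SD over 3 mice. Dusp16 and Dusp8 lie above both room temperature groups in every 4 °C mouse, and the 3 knockouts at 4 °C lie below the 3 controls at 4 °C.

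Dusp8 encodes a phosphatase of JNK and p38. It read 3.26, 3.83 and 2.98 in knockouts at 4 °C and 4.14, 4.31 and 4.20 in controls at 4 °C, against 2.26, 1.73 and 2.60 in knockouts and 1.92, 2.15 and 2.09 in controls at room temperature. All room temperature readings lay near the array medians of 2.03 to 2.09, and RMA compresses differences at such low levels. At 4 °C the gene stood above this level in every mouse, and the knockouts lay below the controls without overlap. The cold rise was 2.24-fold in knockouts (log2 difference 1.16 ± 0.22 with its SE over 3 mice in each group, adjusted p = 0.00631) and 4.47-fold in controls (2.16 ± 0.22, adjusted p = 0.000155).

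Dusp16, the closest relative of Dusp8 in sequence and substrate choice, read 6.50, 6.17 and 6.35 in knockouts at 4 °C and 7.29, 7.28 and 7.09 in controls at 4 °C. At room temperature it read 5.31, 4.89 and 4.95 in knockouts and 5.02, 5.11 and 5.20 in controls. The 4 °C mice of either genotype lay above every room temperature mouse, and the room temperature groups overlapped. It rose 2.45-fold in knockouts (1.29 ± 0.13, adjusted p = 0.000143) and 4.32-fold in controls (2.11 ± 0.13, adjusted p = 7.55e-06).

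Promoter windows of 5 of the genes called with cold are shown. All but that of Dusp5, whose reason is given with it, are shown because cAMP signalling ends in part on CREB. CREB is a factor that binds the cAMP response element (CRE). The 300-base windows are from RefSeq on build GRCm38.p6, 250 bases before to 50 after the annotated start, 5′ to 3′ on the gene's strand. Capitals mark matches to the full CRE TGACGTCA, its half-site TGACG, the AP-1 site TGANTCA or the CArG box of serum response factor, on either strand. A full CRE holds a half-site on each strand.
Dusp8 (chr7:142095235-142095534, minus strand): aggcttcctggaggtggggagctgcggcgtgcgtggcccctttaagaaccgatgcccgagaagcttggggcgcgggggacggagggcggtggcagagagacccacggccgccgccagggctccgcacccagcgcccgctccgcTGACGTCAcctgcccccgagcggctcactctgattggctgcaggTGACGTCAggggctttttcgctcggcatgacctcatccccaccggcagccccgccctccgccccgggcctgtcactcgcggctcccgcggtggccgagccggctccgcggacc
Dusp16 (chr6:134792579-134792878, minus strand): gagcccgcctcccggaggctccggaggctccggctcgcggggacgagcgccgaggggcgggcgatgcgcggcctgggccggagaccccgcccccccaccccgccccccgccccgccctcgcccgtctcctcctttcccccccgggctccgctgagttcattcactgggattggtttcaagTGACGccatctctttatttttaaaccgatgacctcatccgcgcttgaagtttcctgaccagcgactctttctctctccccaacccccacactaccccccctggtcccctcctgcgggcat
The Dusp8 window held a full CRE starting 107 bases and another starting 63 bases before the start site. Of 32851 windows of the same length in the table, 1.79% held at least 1 full CRE and 13 windows, or 0.0396%, held 2 or more. Dusp16 held 1 half-site, starting 70 bases before the start, and at least 1 half-site was found in 20.8% of all windows. The window of Spry2, another gene called with cold, held none of the motifs and is not printed. No window of Spry4, also called with cold, or of Dusp4 was searched. These letters are a description and say nothing of binding.

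Dusp10, another phosphatase of p38 and JNK, was not called in any comparison. It read 7.02, 6.99 and 6.97 in knockouts at 4 °C and 7.44, 7.25 and 7.22 in controls at 4 °C, against 7.16, 6.94 and 6.97 in knockouts and 7.08, 6.95 and 6.97 in controls at room temperature. Only the controls at 4 °C stood apart, above the other 3 groups. The cold difference was -0.03 ± 0.10 in knockouts (adjusted p = 0.924, 95% interval -0.25 to 0.19) and 0.31 ± 0.10 in controls (adjusted p = 0.0801), which passed only with arrays shifted to a common median (0.39, adjusted p = 0.0312).

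Dusp1, a nuclear phosphatase of p38, JNK and ERK and a textbook target of cAMP and glucocorticoids, read 8.42, 8.64 and 8.59 in knockouts at 4 °C and 9.52, 8.85 and 8.36 in controls at 4 °C. It read 7.40, 6.73 and 7.49 in knockouts and 7.93, 7.32 and 8.10 in controls at room temperature. Cold and room temperature mice did not overlap within either genotype, while knockouts and controls overlapped at each temperature. The rise was 2.53-fold in knockouts (1.34 ± 0.29, adjusted p = 0.0108) and 2.19-fold in controls (1.13 ± 0.29, adjusted p = 0.0233). The call in controls was lost in 6 alternatives. It was lost without control replicate 2 at room temperature (adjusted p = 0.095) or without control replicates 1 (0.0916) or 2 (0.0619) at 4 °C. The others were a fit of the control arrays alone (0.0685), testing also probe sets without a single symbol (0.0587) and moving the conflictingly labelled array (0.18). Its window held a full CRE starting 143 bases before the start and a further half-site starting 191 bases before it.
Dusp1 (chr17:26508423-26508722, minus strand): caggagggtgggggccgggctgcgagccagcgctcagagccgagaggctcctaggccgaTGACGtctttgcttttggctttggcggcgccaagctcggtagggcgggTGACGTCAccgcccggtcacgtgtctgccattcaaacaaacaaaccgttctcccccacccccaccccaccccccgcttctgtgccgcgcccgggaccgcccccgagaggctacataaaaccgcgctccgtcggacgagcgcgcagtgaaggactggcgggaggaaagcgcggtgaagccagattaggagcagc

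Dusp6, the ERK phosphatase of the cytoplasm, read 9.32, 9.52 and 9.37 in knockouts and 9.45, 9.17 and 9.01 in controls at 4 °C, against 8.12, 7.68 and 8.38 in knockouts and 7.43, 6.67 and 7.73 in controls at room temperature. All 6 cold mice lay above all 6 room temperature mice. The rise was 2.54-fold in knockouts (1.35 ± 0.24, adjusted p = 0.00411) and 3.81-fold in controls (1.93 ± 0.24, adjusted p = 0.000447). Its second, dimmer probe set read 4.72, 3.99 and 4.24 in knockouts and 4.59, 4.68 and 4.95 in controls at 4 °C, against 2.03, 1.92 and 2.33 in knockouts and 1.80, 1.81 and 2.21 in controls at room temperature. The room temperature readings lay near the array medians, so no fold is given for it. The window of Dusp6 held none of these 4 motifs.
Dusp6 (chr10:99262981-99263280, plus strand): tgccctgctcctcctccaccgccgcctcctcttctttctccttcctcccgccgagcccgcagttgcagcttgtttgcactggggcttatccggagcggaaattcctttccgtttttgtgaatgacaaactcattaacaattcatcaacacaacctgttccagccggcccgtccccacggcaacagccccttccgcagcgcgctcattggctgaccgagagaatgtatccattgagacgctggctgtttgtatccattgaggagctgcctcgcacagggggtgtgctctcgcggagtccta

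Dusp5, a nuclear phosphatase of ERK, read 4.04, 4.62 and 4.42 in knockouts at 4 °C and 3.36, 3.82 and 3.14 in controls at 4 °C. At room temperature it read 3.82, 2.84 and 2.98 in knockouts and 2.73, 2.43 and 3.27 in controls. The 3 cold knockouts were the highest of the 12 mice. It rose 2.21-fold with cold in knockouts (1.15 ± 0.28, adjusted p = 0.022), a call lost without any of 4 single arrays, knockout replicates 2 (adjusted p = 0.0967) and 3 (0.0843) at room temperature or 2 (0.0963) and 3 (0.068) at 4 °C. The difference in controls was 0.63 ± 0.28 (adjusted p = 0.198), and the difference between the cold changes was 0.52 ± 0.40 (adjusted p = 0.742). Its window is shown because it held 2 CArG boxes side by side, starting 82 and 72 bases before the start. Of the 32851 windows, 6 held 2 or more and 1.63% at least 1. As the window was picked for these matches, the shares are a description and no test.
Dusp5 (chr19:53528895-53529194, plus strand): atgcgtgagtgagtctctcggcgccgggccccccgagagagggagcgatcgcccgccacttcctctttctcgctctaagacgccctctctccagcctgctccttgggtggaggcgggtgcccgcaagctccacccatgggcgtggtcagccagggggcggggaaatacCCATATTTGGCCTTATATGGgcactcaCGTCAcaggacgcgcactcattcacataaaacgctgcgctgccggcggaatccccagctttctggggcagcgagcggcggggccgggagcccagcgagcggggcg

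**Figure D2:**
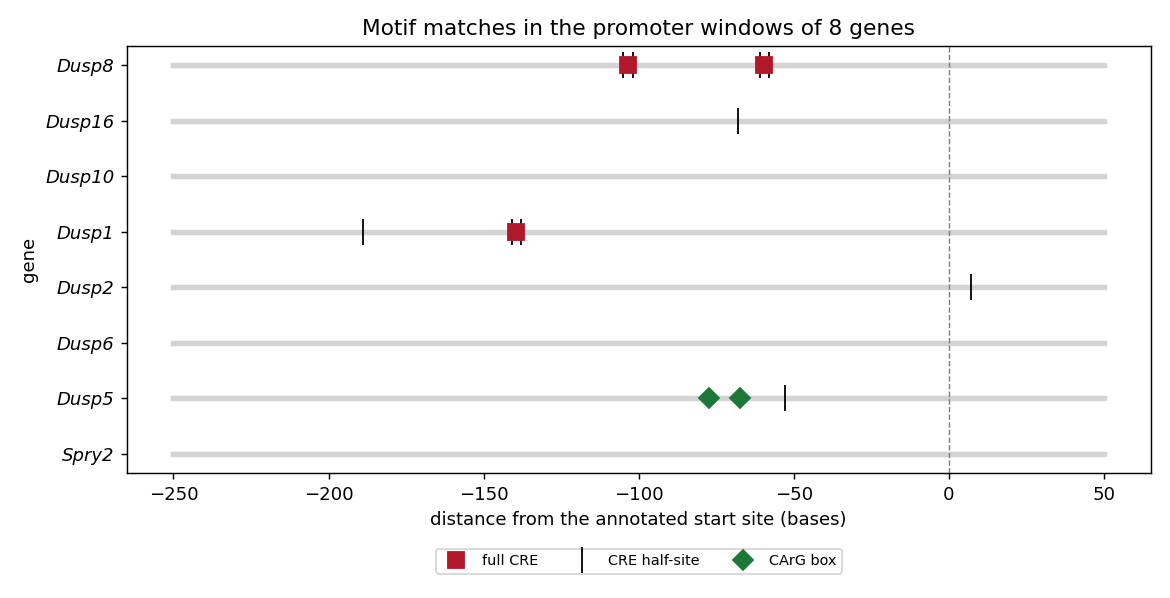
Matches to the full CRE (squares), its half-site (bars) and the CArG box (diamonds) in the promoter windows of the 8 genes searched, by distance in bases from the annotated start (dashed line). Dusp4 and Spry4 were not searched. Of these 8, Dusp8 and Dusp1 held a full CRE, Dusp5 held CArG boxes, and none held the AP-1 site.

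Spry4, an inhibitor of growth factor signalling to ERK, read 6.67, 6.77 and 6.86 in knockouts and 7.45, 7.00 and 6.23 in controls at 4 °C, against 5.90, 5.08 and 5.86 in knockouts and 4.31, 4.25 and 5.37 in controls at room temperature. Cold mice lay above room temperature mice in both genotypes. The rise in controls was 4.75-fold (2.25 ± 0.34, adjusted p = 0.00134). In knockouts the difference of 1.16 ± 0.34 missed the threshold (adjusted p = 0.0527). It passed in 6 alternatives, among them a fit of the 6 knockout arrays alone (0.0132) and leaving out the array with conflicting labels (0.0256) or control replicates 1 (0.0424) or 3 (0.0265) at 4 °C. Its relative Spry2 read 5.23, 5.31 and 5.31 in knockouts and 4.84, 5.22 and 4.81 in controls at 4 °C, and 4.89, 4.43 and 4.68 in knockouts and 4.70, 4.24 and 4.39 in controls at room temperature. Its cold changes were small, at 0.62 ± 0.16 in knockouts (adjusted p = 0.0265) and 0.51 ± 0.16 in controls (adjusted p = 0.055), where the threshold was passed in 6 alternatives. The Spry2 call in knockouts was lost without knockout replicates 2 (0.111) or 3 (0.067) at room temperature or any of the 3 knockouts at 4 °C (0.0642, 0.0846 and 0.0755).

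The nuclear phosphatase genes Dusp4 and Dusp2 were not called in either genotype. Dusp4 read 6.59, 5.98 and 6.60 in knockouts and 5.83, 6.56 and 6.10 in controls at 4 °C, and 5.62, 6.64 and 7.01 in knockouts and 5.51, 4.75 and 5.73 in controls at room temperature. The controls at room temperature were the low group, and the knockouts overlapped between temperatures. The cold difference of Dusp4 was -0.03 ± 0.34 in knockouts (95% interval -0.78 to 0.71, adjusted p = 0.98) and 0.84 ± 0.34 in controls (adjusted p = 0.158). Dusp2 was low in all groups, with readings of 2.37 to 3.44 in knockouts and 2.43 to 3.42 in controls over both temperatures.

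**Figure D3:**
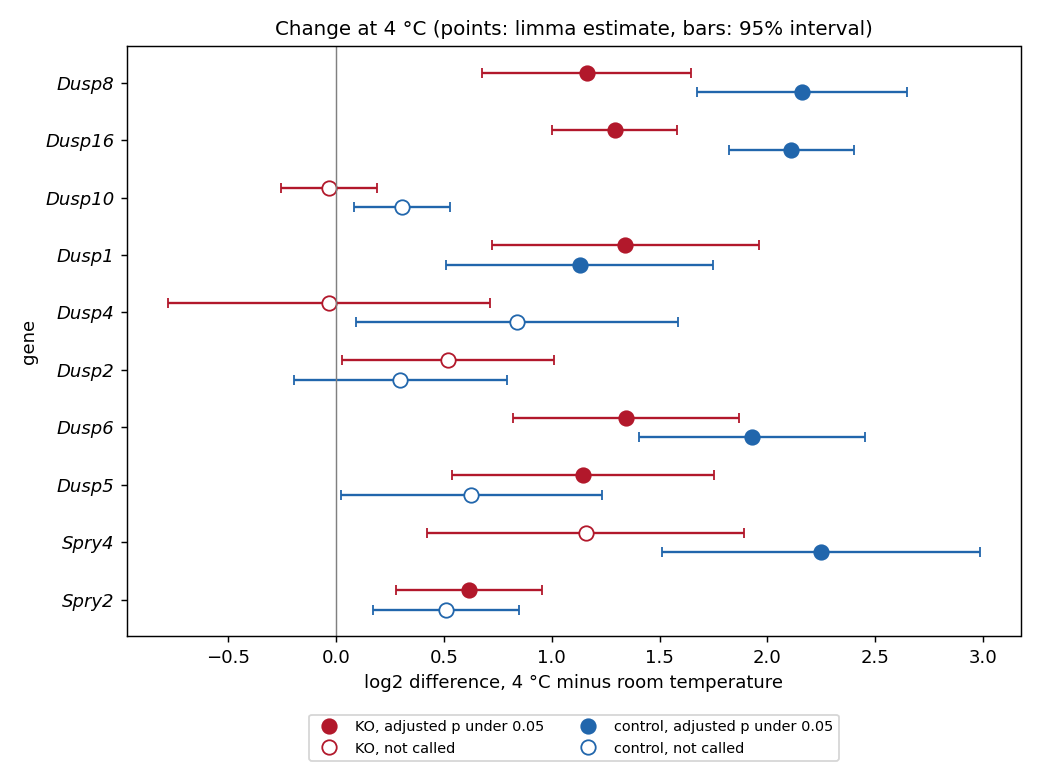
Log2 difference of 4 °C minus room temperature (x axis) for each gene in knockouts (red, upper) and controls (blue, lower), with limma's 95% interval, unadjusted, and filled points for an adjusted p under 0.05. For Dusp8 and Dusp16 the estimates are 1.16 and 1.29 in knockouts and 2.16 and 2.11 in controls, and for Dusp1 1.34 and 1.13.

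At 4 °C, 2 of the 10 genes were lower in mice labelled knockout, whose Sel1l was not called lower there, than in controls, Dusp16 and Dusp8, and none was higher, where 2.19% of all probe sets were called lower, 3.61% higher and 5.80% in either direction. At an unadjusted p under 0.05 there were 4 genes, Dusp5 (higher), Dusp8, Dusp10 and Dusp16 (lower), beside 16.9% of all probe sets. Dusp16 was 1.84-fold lower (-0.88 ± 0.13, adjusted p = 0.00141). Its call held without each single array and was lost only with the conflictingly labelled array among the 4 °C controls (-0.37, adjusted p = 0.747). Dusp8 was 1.81-fold lower (-0.86 ± 0.22, adjusted p = 0.0424), and this call was lost in 14 of 21 alternatives, 9 of them single arrays left out. Among these the adjusted p reached its highest value, 0.171, when knockout replicate 3 at 4 °C was dropped, 0.13 without knockout replicate 1, 0.119 without control replicate 2, 0.0975 without control replicate 1 and 0.0804 without control replicate 3 at 4 °C, and lay between 0.0545 and 0.0582 without any of the 3 controls or knockout replicate 1 at room temperature. With the replicate number as a block the adjusted p of Dusp8 was 0.0747. Dusp10, with 3 knockouts below 3 controls, differed by -0.31 ± 0.10 (adjusted p = 0.111).

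None of the other 8 genes was called between genotypes at 4 °C. Dusp5 was 0.92 ± 0.28 higher in knockouts at 4 °C without overlap and missed the threshold (adjusted p = 0.082), which it passed in a fit of the 6 arrays at 4 °C alone (0.046), with the mean of the muscle markers in the model (0.0484), with the conflictingly labelled array moved (0.0387) and without knockout replicate 1 at room temperature (0.0385). Spry2 differed by 0.33 ± 0.16 (adjusted p = 0.31), also without overlap. Of the 10 genes, 2 had knockouts above and 3 knockouts below all controls at 4 °C, where 11.2% and 10.7% of all probe sets did so. Dusp6 differed by 0.20 ± 0.24 (95% interval -0.33 to 0.72), Spry4 by -0.12 ± 0.34 (-0.86 to 0.61) and Dusp1 by -0.36 ± 0.29 (-0.98 to 0.26).

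Marker lists of other cells were set beside these differences at 4 °C. The 8 brown adipocyte markers averaged 10.45 to 10.51 in knockouts and 10.78 to 10.88 in controls, with Pparg (-0.78) and Ppargc1a (-1.42) called lower. The 3 white adipocyte markers averaged 4.35 to 4.51 in knockouts and 4.77 to 5.42 in controls, with Retn called lower (-1.42, adjusted p = 0.0103), and the 8 endothelial markers averaged 6.53 to 6.69 in knockouts and 6.75 to 6.94 in controls, with 0 called by limma and 3 at an unadjusted p under 0.05. The 7 markers of smooth muscle and pericytes averaged 5.98 to 6.03 in knockouts and 6.10 to 6.54 in controls, with 0 called and 1 at an unadjusted p under 0.05, and the 8 macrophage markers averaged 5.64 to 5.89 in knockouts and 5.21 to 6.15 in controls, with 0 called and 0 at an unadjusted p under 0.05. Of 6 T and B cell markers, 5 averaged at most 2.5 over the 12 arrays, near the array median. The part of these cells in the differences was not tested. With the mean of the 15 muscle markers as a covariate, Dusp16 differed by -0.88 (adjusted p = 0.00335) and Dusp8 by -0.80 (adjusted p = 0.0764).

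At room temperature none of the 10 genes was called between genotypes by limma, also with a trended and robust variance prior, where 1.72% of all probe sets were called, 1.29% higher and 0.429% lower. At an unadjusted p under 0.05 there were 3, all with a higher mean in knockouts, beside 13.0% of all probe sets. Dusp4 differed by 1.09 ± 0.34 (adjusted p = 0.164), Spry4 by 0.97 ± 0.34 (adjusted p = 0.214) and Dusp6 by 0.78 ± 0.24 (adjusted p = 0.157). In each of the 3 the lowest knockout lay below the highest control, so the groups overlapped. That control was in each case the array with conflicting labels, and the other controls lay below every knockout. None of the 10 genes had knockouts and controls apart at room temperature, as was so for 8.76% of all probe sets with knockouts higher and 8.62% with knockouts lower. Of the 15 muscle markers, 0 were called by limma at room temperature and 10 had an unadjusted p under 0.05, with a median difference of -2.30, and their part in these differences was not tested. Dusp4 passed without knockout replicate 1 (1.49, adjusted p = 0.033). Dusp8 (0.14 ± 0.22, 95% interval -0.35 to 0.63) and Dusp16 (-0.06 ± 0.13, -0.35 to 0.23) lay close to the controls.

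**Figure D4:**
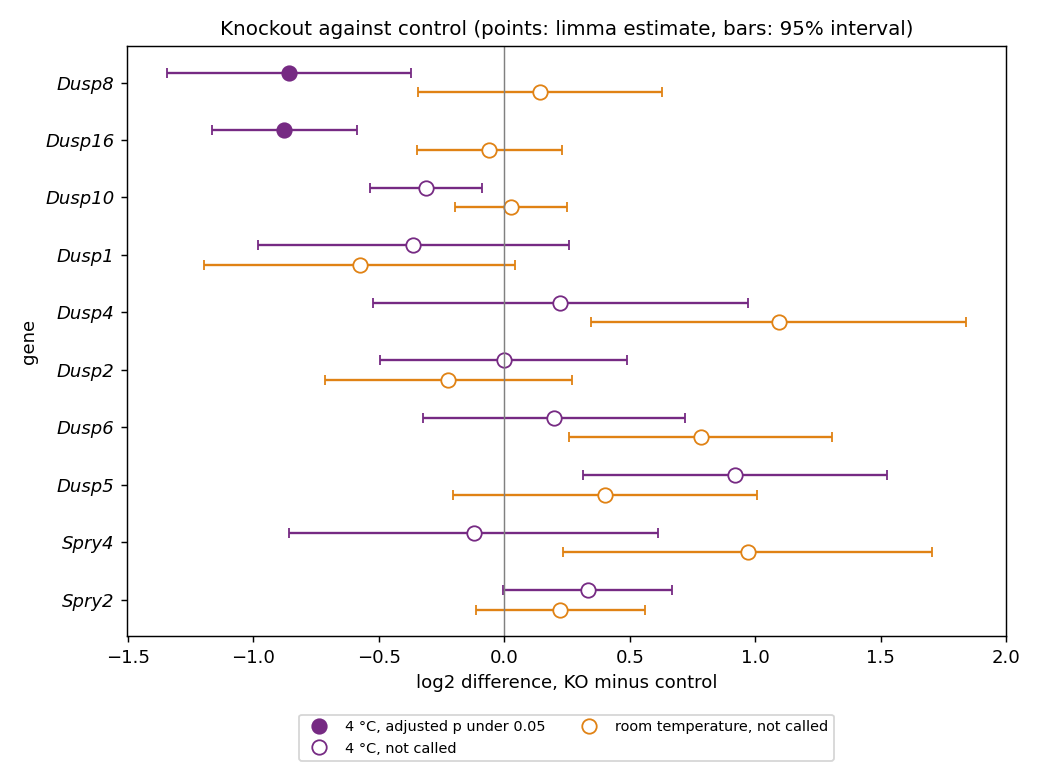
Log2 difference of knockout minus control (x axis) at 4 °C (purple, upper) and at room temperature (orange, lower) for each gene, with limma's 95% interval, unadjusted, and filled points for an adjusted p under 0.05. Dusp16 and Dusp8 are the only filled points, at -0.88 and -0.86 at 4 °C.

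The cold changes were also compared directly. None of the 10 differences between the cold change in knockouts and that in controls passed limma's test, as was so with the trended and robust prior, where 0.306% of all probe sets passed, 0.230% above and 0.0765% below 0. At an unadjusted p under 0.05 there were 4, beside 9.77% of all probe sets, and each was a smaller cold change in knockouts. Dusp16 came nearest (-0.82 ± 0.19, adjusted p = 0.106, range 0.0783 to 0.954 over its alternatives), followed by Dusp8 (-1.0 ± 0.32, 0.276), Dusp10 (-0.34 ± 0.15, 0.472) and Spry4 (-1.09 ± 0.48, 0.482). Dusp4 (-0.87 ± 0.49, 0.617) and Dusp6 (-0.58 ± 0.34, 0.636) were also below 0. For Dusp1 (0.21 ± 0.40, 95% interval -0.66 to 1.09), Dusp2 (0.22 ± 0.32, -0.48 to 0.92), Dusp5 and Spry2 (0.11 ± 0.22, -0.37 to 0.59) the estimate was above 0. 

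The genes differed in which profiles over the 12 arrays came closest to theirs, given as Pearson r among 11992 brighter genes, with arrays in 4 groups and no test. Dusp16 ran with Ppargc1a (r = 0.978), the coactivator of mitochondrial biogenesis, Tom1 (0.977) and the chaperone gene Hsph1 (0.975). Dusp6 ran with the stress transcription factor Atf4 (0.977), Apold1 (0.975) and the kinase Sgk1 (0.974), and Spry4 with the protease Adamts1 (0.986), the urokinase receptor Plaur (0.98) and the basement membrane collagen Col4a1 (0.972). Dusp1 came closest to Pnrc1 (0.953), the kinase anchor Akap12 (0.951) and Aifm2 (0.948). Dusp8 came closest to B930025P03Rik (0.969), Gtpbp4 (0.959) and Plk3 (0.951). Dusp5 (0.929) and Spry2 (0.957) shared Il17ra, with Tubb2a (0.956) and Polr1e (0.951) for Dusp5 and Bysl (0.954) and Cdk18 (0.939) for Spry2. Among the 10 genes themselves the closest pairs were Spry4 with Dusp6 (r = 0.958), Dusp16 with Dusp8 (0.944) and Spry2 with Dusp5 (0.896).

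Of the other phosphatases of the family, none was called higher at 4 °C in either genotype. Of all probe sets, 4.32% were called higher in knockouts and 4.85% in controls, so none among so few genes lies near these shares. Lower calls were made for 4.70% of all probe sets in knockouts and 6.23% in controls. Of the remaining MAP kinase phosphatase genes, Dusp7 fell at 4 °C by 0.99 in knockouts (adjusted p = 0.00812) and by 0.84 in controls (adjusted p = 0.0162) on the log2 scale. The call in controls was lost without control replicates 1 (adjusted p = 0.0736) or 3 (0.0585) at room temperature. Dusp9 was not called. Of 11 atypical dual specificity phosphatases, Dusp19 fell in knockouts (-0.68, adjusted p = 0.00792) and Dusp19 (-1.12, adjusted p = 0.00037) and Dusp23 (-1.29, adjusted p = 0.00503) fell in controls. At an unadjusted p under 0.05 there were 1 in knockouts and 4 in controls. Dusp23 read 6.22, 6.29 and 6.64 in knockouts and 4.79, 3.83 and 5.09 in controls at 4 °C, and was the only one of these 11 called between genotypes there (3.51-fold higher in knockouts, log2 1.81, adjusted p = 0.000575).

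Among 8 other inhibitors of receptor signalling, Errfi1, which blocks the EGF receptor, rose in knockouts (1.76, adjusted p = 0.000561) and in controls (1.57, adjusted p = 0.001), and Spred2, a Sprouty relative, rose in controls (0.79, adjusted p = 0.00609). Lrig1, another brake on receptors, fell in knockouts (-0.83, adjusted p = 0.0171, lost without knockout replicate 2 at room temperature, 0.0758, or knockout replicates 1, 0.0599, or 2, 0.0658, at 4 °C) and in controls (-1.18, adjusted p = 0.00213), and Il17rd fell in knockouts (-0.57, adjusted p = 0.00773). Il17rd read 1.67 to 2.54 over the 12 arrays, near the array medians. None of the 8 was called between genotypes at either temperature by limma, with 2 at each at an unadjusted p under 0.05. Of 16 measured MAP kinases and upstream kinases, Mapk14, the gene of p38 alpha, was the only one called with cold. It fell in knockouts (-0.85, adjusted p = 0.00346) and in controls (-0.74, adjusted p = 0.00656), and none of the 16 was called between genotypes by limma, with 2 at 4 °C and 1 at room temperature at an unadjusted p under 0.05.

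Of 17 early and ETS target genes linked to ERK, 8 rose with cold in knockouts and 5 in controls, with medians of 0.53 and 0.41. Fosb (3.17 in knockouts and 3.87 in controls), Fos (2.51 and 2.21), Fosl2 (1.54 and 2.14) and Jun (1.65 and 1.16), which encode parts of the AP-1 factor, rose in both genotypes. Fosb read 1.56 to 2.08 at room temperature, near the array medians. The early gene Egr1 rose in knockouts (2.51, adjusted p = 0.0205), a call lost without knockout replicates 1 or 2 at room temperature or any knockout at 4 °C (adjusted p 0.0554 to 0.08). Ier2 rose in controls (0.95, adjusted p = 0.0312), a call lost without control replicates 1 or 2 at room temperature or 1 or 3 at 4 °C (0.0507 to 0.129). The ETS genes Etv4 and Etv5, textbook companions of Dusp6 and Spry4 under ERK, differed by 0.09 and 0.49 in knockouts and by -0.13 and 0.21 in controls and were not called. Etv4 read 1.49 to 1.89 over the 12 arrays, below the array medians.

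Of 11 cAMP and CREB targets, 6 rose with cold in knockouts and 7 in controls, with medians of 1.04 and 1.07. The largest were Nr4a3 (3.55 in knockouts and 3.29 in controls), Ppargc1a (1.85 and 3.41), Dio2 (2.03 and 2.72), which activates thyroid hormone, and the kinase Sik1 (1.37 and 1.98), with the clock gene Per1 (1.04) in knockouts and Nr4a2 (1.07) in controls. The Nr4a2 call was lost without any of 9 arrays, all but knockout replicate 2 and control replicate 3 at room temperature and control replicate 3 at 4 °C (adjusted p 0.0504 to 0.142). It was also lost with the muscle markers in the model. Of 8 glucocorticoid targets, 5 rose in knockouts and 4 in controls, with medians of 0.92 and 0.61. Zbtb16 (1.69 in knockouts and 1.03 in controls), Cebpd (1.53 and 0.96) and Sgk1 (0.85 and 1.02) rose in both, Per1 and Klf9 (0.60) in knockouts, and Pdk4 (0.46) in controls. In controls the Cebpd call was lost without control replicates 1 or 3 at room temperature or 2 or 3 at 4 °C (0.05 to 0.0987), and that of Pdk4 without replicate 1 at room temperature or 1 or 2 at 4 °C (0.0749 to 0.114).

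Between genotypes, Nr4a3 was lower in knockouts at 4 °C (-0.68, adjusted p = 0.0299) and at room temperature (-0.94, adjusted p = 0.0117). Ppargc1a was lower in knockouts at 4 °C (-1.42, adjusted p = 0.00473). The Ppargc1a call was lost only with the conflictingly labelled array moved to the 4 °C controls (adjusted p = 0.709). At 4 °C the Nr4a3 call was lost in 7 alternatives, among them the muscle markers in the model (adjusted p = 0.0528) and leaving out knockout replicates 1 (0.121) or 2 (0.0697) or control replicates 1 (0.117) or 2 (0.0951) at 4 °C. At room temperature it was lost with the muscle markers (0.104) and without knockout replicate 3 (0.052) or control replicate 3 (0.0527) there. Of the glucocorticoid targets, Tsc22d3 was lower in knockouts at room temperature (-0.90, adjusted p = 0.0469), a call lost without any array but control replicate 1 at room temperature (0.0524 to 0.159). The Tsc22d3 call was also lost with the muscle markers in the model (0.203). None of the early and ETS targets was called between genotypes by limma, with 2 at each temperature at an unadjusted p under 0.05.

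Of 16 growth factor receptors and coreceptors, Egfr rose (0.99) and Met fell (-0.99) with cold in knockouts, and in controls Fgfr3 (0.87) and Egfr (0.74) rose and Erbb4 (-1.08) and Klb (-1.69) fell. Fgfr3 read 2.04 to 2.35 at room temperature, near the array medians. The Egfr call in controls was lost without any of the 6 controls (adjusted p 0.0532 to 0.0941). Klb, the coreceptor of Fgf21, read 7.89, 7.92 and 8.07 in knockouts and 5.98, 5.78 and 6.94 in controls at 4 °C, and was 3.31-fold higher in knockouts there (1.73, adjusted p = 0.000837). The call of Klb between genotypes at 4 °C was lost only with the conflictingly labelled array moved to the 4 °C controls (adjusted p = 0.133). The cold changes of Klb in the 2 genotypes were not called different (difference 1.47, adjusted p = 0.112).

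Of 13 ligands, the hormone gene Fgf21 (4.27 in knockouts and 4.35 in controls) and Hbegf (1.07 and 0.66), an EGF receptor ligand, rose with cold in both genotypes and Vegfb (-0.49 and -0.65) fell. In knockouts Nrg4 fell (-0.47), and in controls Fgf9 rose (0.88). Hbegf read 1.61 to 2.17 at room temperature, near the array medians. So did Fgf9 in all groups but the controls at 4 °C, at 1.76 to 2.24. Fgf21 read 1.57 to 2.79 in controls at room temperature. The knockout calls of Vegfb and Nrg4 were lost without 9 and 4 single arrays. For Vegfb these were all but knockout replicate 2 at room temperature, knockout replicate 3 and control replicate 3 at 4 °C (adjusted p 0.0512 to 0.188), and for Nrg4 knockout replicates 2 or 3 at room temperature or 1 or 2 at 4 °C (0.0524 to 0.0751). Between genotypes, Fgf21 was higher in knockouts at 4 °C (1.55, adjusted p = 0.0197) and at room temperature (1.63, adjusted p = 0.034), while Fgf9 (-1.01, adjusted p = 0.00117) and Pdgfb (-0.96, adjusted p = 0.0445) were lower at 4 °C. The Fgf21 call at 4 °C was lost without knockout replicates 1 or 2 or any control at 4 °C (0.0506 to 0.0816), and that at room temperature without knockout replicates 1 or 3 or control replicates 1 or 2 at room temperature or any knockout at 4 °C (0.0506 to 0.129). The Fgf21 call at room temperature was also lost with the muscle markers in the model and in a fit of the room temperature arrays alone (0.146). The Pdgfb call was lost without any knockout or control replicates 1 or 2 at 4 °C, or knockout replicates 1 or 3 or control replicate 1 at room temperature (0.0506 to 0.158). It was also lost with the muscle markers in the model.

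**Figure D5:**
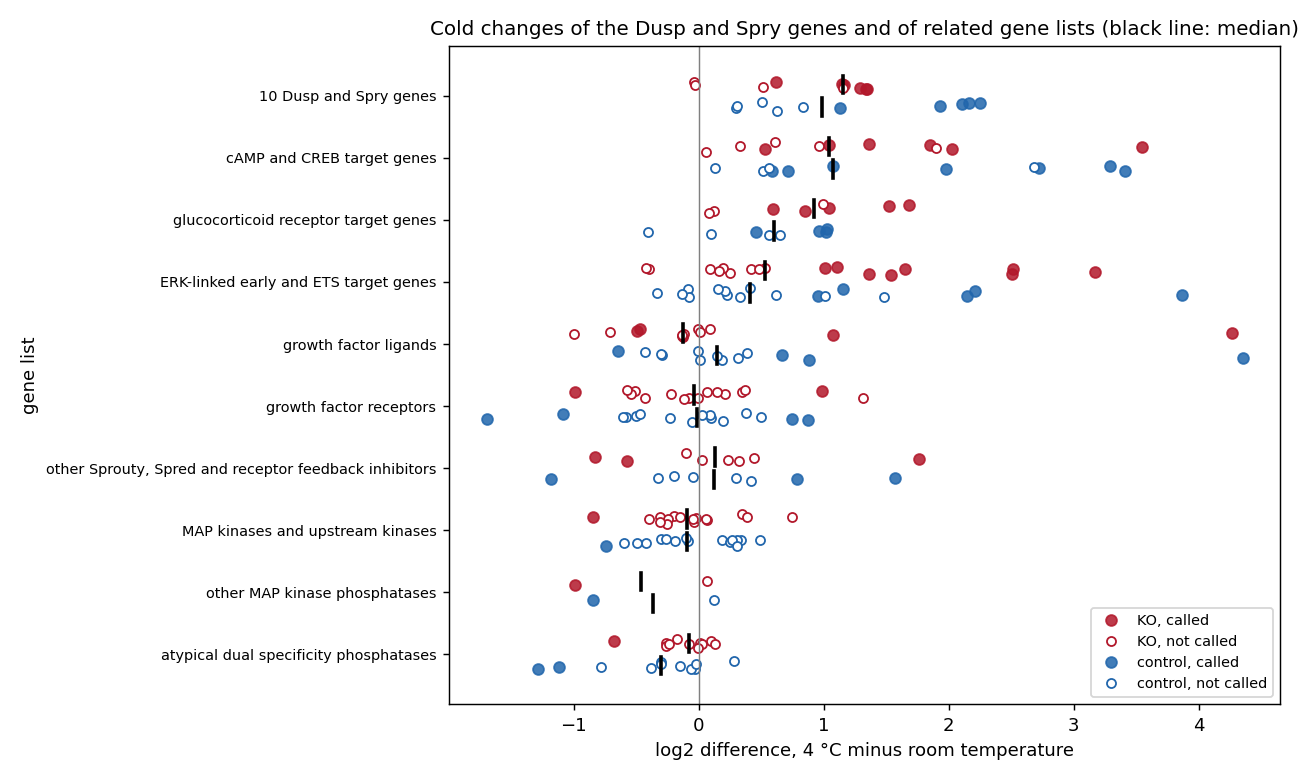
Log2 difference of 4 °C minus room temperature for the 10 Dusp and Spry genes and 9 related lists, 1 point per gene, in knockouts (red, upper) and controls (blue, lower), filled where the adjusted p was under 0.05, with the list's median as a black line. The medians of the 10 genes (1.15 in knockouts and 0.98 in controls) and of the cAMP and CREB targets (1.04 and 1.07) lie to the right. So do those of the glucocorticoid targets (0.92 and 0.61) and of the early and ETS targets (0.53 and 0.41). Those of the kinases and atypical phosphatases lie near or below 0.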

How the data were processed

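Expression was measured on 1 whole-transcript array per mouse in 12 mice. The deposited values are log2 expression, made by the authors with RMA, per the submitters' processing notes, which name no version. RMA corrects background, quantile-normalizes arrays and summarises probe sets, and it compresses differences near background. No scanner intensities were used, and the number of arrays limits the precision.

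Groups came from the sample titles, and all 12 columns were matched to samples. In limma 3.58.1 (R 4.3.3), each of the 4 groups had its own mean in a linear model over the 12 arrays (8 residual degrees of freedom), and p-values were adjusted by Benjamini-Hochberg over the 23521 probe sets with exactly 1 gene symbol. The fit was tested on simulated data. The labels do not tie the mice to litters or days, so the p-values reflect only how far these arrays spread. Same-numbered replicates did not deviate together (18 pairs, r from -0.18 to 0.165, 2 over 0.1), so the numbers were not taken to pair mice.

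Genes of other lists are named where called, up to 5 per list and comparison by size, and Etv4, Etv5 and Dusp9 were named after their values were seen. Cell markers are named where called in a comparison. For each called gene the 3 closest profiles are named. The 95% intervals are unadjusted. The members, lists and markers were chosen with earlier results of these data known. Alternatives changed the arrays fitted, block, label conflict, filter, prior, scaling, muscle covariate and probe set choice.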

Additional observations from a re-analysis of the deposited data

How the results depend on the processing

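Of 1040 alternative values over the 50 comparisons of the 10 genes, 961 kept their direction and their side of the threshold. Of the rest, 40 lost a call, 18 gained one and 21 changed sign. None of the sign changes fell in a comparison where that gene was called in the fit as reported. The count of genes called at 4 °C between genotypes was 2 and became 1 with the replicate block (Dusp16), 1 when probe sets without a single symbol were also tested (Dusp16) and 1 with the conflictingly labelled array among the 4 °C controls (Dusp5, higher). That last setting also gave 0 called genes for cold in controls and 2 for cold in knockouts, with groups of 4 and 2 controls. The replicate block changed no other call of the 10 genes. With those probe sets, 4 genes were called for cold in controls and 4 in knockouts. Leaving out single arrays gave 1 to 2 called genes between genotypes at 4 °C, 0 to 1 at room temperature, 4 to 6 for cold in controls, 4 to 7 for cold in knockouts and 0 for the difference of cold changes. With the conflictingly labelled array moved, the difference between genotypes at 4 °C was 0.14 for Dusp2, 0.26 for Spry4 and 0.10 for Nr4a3, the last a gene called lower in the fit as reported. With arrays shifted to a common median the cold difference in knockouts was 0.0494 for Dusp4 and 0.0510 for Dusp10, with the muscle markers in the model it was 0.0798 for Dusp4 and the difference between genotypes at 4 °C was 0.0896 for Dusp2, and with the mean over both probe sets of Dusp6 that difference was -0.11. Over single arrays left out, the difference between genotypes at 4 °C ran from -0.22 to 0.22 for Dusp2 and from -0.45 to 0.16 for Spry4, and at room temperature from -0.0603 to 0.374 for Dusp8, from -0.0427 to 0.0676 for Dusp10 and from -0.189 to 0.0195 for Dusp16. The cold difference in knockouts ran from -0.43 to 0.26 for Dusp4 and from -0.0736 to 0.0367 for Dusp10, and the difference of cold changes from -0.0634 to 0.518 for Dusp1 and from -0.0222 to 0.239 for Spry2. Readings near the array median, as for Dusp8 at room temperature and Dusp2, limit what can be seen.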
